A study of Homo sapiens with 18 samples.

Results

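The genes described here encode secreted peptide hormones: KISS1, NMU, PTHLH, VGF, STC1 and STC2. They were taken by gene symbol from the deposited table of the series, in which all 6 were found among 17017 genes. KISS1 and NMU had been noted earlier in the same libraries for being far lower in RNA and in ribosome footprints under both hairpins than in the control, and the other 4 were added as hormones of like kind. The genes were thus chosen by their RNA, footprint and ratio differences from the control, and those comparisons describe them without a test.

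The cells were MDA-MB-231, an established human line of triple-negative breast carcinoma. All groups were transduced with lentivirus, kept for 96 h in puromycin at 1 µg/ml and treated with cycloheximide at 100 µg/ml for 5 min before lysis. The treatment SC is read as the scramble control, and SH2 and SH3 as short hairpin RNAs against the mRNA of fibrillarin (FBL), the nucleolar methyltransferase that modifies ribosomal RNA. Which hairpin is knockdown 1 or knockdown 2 in the protocols is not stated. Each treatment had 3 replicates of input cytoplasmic RNA (IN) and 3 of ribosome-protected footprints (RPF), 18 libraries in all. Whether replicates came from separate transductions is not stated, so the spread between them may be technical.

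Peptide hormones are made as precursors that enter the secretory pathway through a signal peptide. Many are cut at pairs of basic residues by proprotein convertases such as furin, trimmed by carboxypeptidases and, in some cases, amidated at the C-terminus before they act on G-protein-coupled receptors of other cells. KISS1 is the precursor of the kisspeptins and was described as a metastasis suppressor, NMU of the smooth-muscle-contracting neuromedin U, and PTHLH of the parathyroid hormone-related protein that breast tumours secrete in bone metastasis. VGF is a granin-like precursor of neurons and endocrine cells, and the stanniocalcins STC1 and STC2 are disulfide-linked glycoprotein hormones that inhibit the pappalysin proteases.

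RNA libraries held 23469830 to 27629488 counts and footprint libraries 1662705 to 6098648, so footprint values of the rarer hormones rest on few counts. FBL itself was 388 ± 36.4 CPM (a count scaled to a common library size with TMM factors, separately for each library kind) in SC RNA (SD, n = 3). SH2 kept 5.67 ± 5.09 of it and SH3 3.49 ± 0.612. Its residue in SH2 RNA ran from 1.26 CPM in replicate 1 to 11.2 in replicate 3. The 5 markers of this line (VIM, AXL, ITGB1, CD44 and PLAUR) summed to 7451 to 9684 CPM in SC RNA, 8971 to 9764 in SH2 and 7413 to 8384 in SH3. By edgeR, CD44 and PLAUR were higher and AXL lower in SH2 RNA than in SC, and ITGB1 was higher in SH3, with 0 to 3 of the 5 called in SH3 over the alternatives. The part of these differences in the results was not tested. Of 7 luminal and epithelial markers, ESR1 had at most 1 count and PGR at most 2 in any RNA library, while KRT19 reached 14566. The summed RNA of the 7 was 427 to 611 CPM in SC, 393 to 505 in SH2 and 388 to 444 in SH3, and its part in the differences below was not tested. Most of that sum was KRT19 (495 ± 92.4 CPM in SC). Of the 4 tested in RNA, 1 was called higher in SH2 (GATA3, by 0.48, edgeR adjusted p 0.00947). In SH3, 1 was called higher (EPCAM) and 1 lower. These are shares of 25% and 50%, beside 61.4% and 53% of all genes. Over the alternatives the calls numbered 0 to 2 in SH2 and 1 to 3 in SH3. Of the neuroendocrine markers, SYP had at most 8 RNA counts in any library, and NEUROD1, NCAM1 and CHGA had at most 1.

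Promoters of the hormone genes were read from RefSeq on GRCh38.p14, as the 250 bases before the annotated start. Of the 6 genes, 5 had an entry. The build behind the count table is not given in the sources used here, and which start these cells use is not known. KISS1 and NMU are shown since their RNA was low under both hairpins, and VGF since its promoter holds the same kinds of short motif as that of KISS1 while its RNA was level. Capitals mark matches, on either strand, to any of 5 short motifs chosen with the sequences in view. The TATA box was searched as TATAAA, which 10.7% of 35116 promoter windows of the same length held. The GC box bound by SP1 was searched as GGGCGG and was in 42.6% of windows. The core of the cAMP response element was searched as TGACGT and was in 7.1%. The core of the hypoxia response element was searched as ACGTG and was in 18.5%. The AP-1 motif was searched as TGACTCA and was in 4.2%.
KISS1, chr1:204196492-204196741, minus strand: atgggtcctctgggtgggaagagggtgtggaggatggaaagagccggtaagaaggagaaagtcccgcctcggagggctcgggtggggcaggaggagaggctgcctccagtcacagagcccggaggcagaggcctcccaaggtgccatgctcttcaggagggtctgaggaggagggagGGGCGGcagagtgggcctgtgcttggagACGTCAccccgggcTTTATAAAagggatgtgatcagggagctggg
NMU, chr4:55636794-55637043, minus strand: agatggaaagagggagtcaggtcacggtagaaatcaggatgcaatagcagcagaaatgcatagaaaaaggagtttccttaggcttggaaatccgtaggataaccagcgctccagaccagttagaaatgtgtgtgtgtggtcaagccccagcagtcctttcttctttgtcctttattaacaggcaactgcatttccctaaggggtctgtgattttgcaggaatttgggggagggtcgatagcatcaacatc
VGF, chr7:101165570-101165819, minus strand: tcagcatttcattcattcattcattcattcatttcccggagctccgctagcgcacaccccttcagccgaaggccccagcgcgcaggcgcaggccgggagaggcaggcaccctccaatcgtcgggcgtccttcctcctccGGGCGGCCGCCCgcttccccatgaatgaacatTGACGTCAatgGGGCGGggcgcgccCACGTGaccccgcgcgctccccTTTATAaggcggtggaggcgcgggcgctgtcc

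The KISS1 window holds a TATA box matched on both strands by overlapping letters, 24 to 31 bases before the start. It also has a GC box 68 to 73 bases and a cAMP response core 40 to 45 bases before it. The VGF window holds the cAMP response core on both strands, overlapping in a palindrome 72 to 79 bases before the start. It has 3 GC boxes, a hypoxia core on both strands and a TATA box matched only on the strand opposite the gene. Whether these motifs bear on the RNA differences was not tested. None of the 5 motifs occurs in the NMU window or in that of STC2, and PTHLH has 3 GC boxes and no other match. GC content was 63.6% for KISS1, 66% for VGF and 46.4% for NMU, against a median of 58% over all windows.

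KISS1 RNA stood at 62.4, 29.8 and 34.2 CPM in SC replicates 1, 2 and 3. In SH2 it stood at 4.51, 1.35 and 2.03 CPM, and in SH3 at 3.56, 4.40 and 1.38 CPM. Every hairpin library lay below every SC library, and the SH2 and SH3 libraries overlapped. The group mean was 6.24% of SC in SH2 and 7.39% in SH3, log2 differences of -4.01 (SE 0.42) and -3.77 (SE 0.41). Without SH2 replicate 1, its highest library, the SH2 difference was -4.63. Footprints of KISS1 were 60.9, 155 and 83.8 CPM in SC, 4.44, 8.16 and 11.3 in SH2, and 9.37, 3.42 and 5.26 in SH3. These groups were separated from SC in the same way, with 7.99% and 6.02% of the SC mean left. The footprint log2 differences were -3.60 (SE 0.36) in SH2 and -4.12 (SE 0.40) in SH3. The hairpin footprints rest on 10 to 35 counts per library. SC replicate 1 was the highest in RNA and the lowest in footprints.

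NMU was the other hormone that was low under both hairpins. Its RNA was 6.29, 9.23 and 9.44 CPM in SC, 1.49, 1.24 and 1.24 in SH2, and 1.04, 0.923 and 2.11 in SH3. Every SC library lay above all hairpin libraries, and the hairpins overlapped each other. The means were 15.9% and 16.3% of SC, log2 differences of -2.65 (SE 0.28) in SH2 and -2.60 (SE 0.28) in SH3. NMU footprints were 13.8, 10.1 and 13.1 CPM in SC, 2.96, 0.699 and 2.91 in SH2, and 1.17, 2.05 and 2.45 in SH3, from 2 to 9 counts in each hairpin library. The log2 differences were -2.61 (SE 0.38) and -2.64 (SE 0.41), close in size to those of the RNA.

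PTHLH was higher under the hairpins, most of all in SH2. Its RNA was 2.41, 1.24 and 1.38 CPM in SC, 7.88, 6.32 and 7.40 in SH2, and 4.00, 2.89 and 2.80 in SH3. The libraries fell in 3 separate ranges, with SC lowest, SH3 between and SH2 highest. Against SC the log2 differences were 2.10 (SE 0.24) in SH2 and 0.95 (SE 0.26) in SH3. PTHLH footprints were 2.44, 2.95 and 1.07 CPM in SC, 10.4, 10.5 and 3.56 in SH2, and 1.17, 5.82 and 2.10 in SH3. Only SH2 was separated from SC there, by a log2 difference of 2.01 (SE 0.50), while SH3 overlapped both (0.70, SE 0.60, against SC) and gave -0.20 without SH3 replicate 2.

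VGF behaved differently in RNA and in footprints. Its RNA was 2.16, 1.48 and 1.30 CPM in SC, 1.41, 1.51 and 1.85 in SH2, and 1.44, 2.14 and 1.61 in SH3, so the 3 treatments overlapped. Its footprints were 5.68, 9.27 and 3.73 CPM in SC, 1.48, 1.40 and 1.29 in SH2, and 4.10, 4.11 and 5.26 in SH3. All SH2 footprint libraries lay below all others, with 22.4% of the SC mean, while SH3 lay within the SC range. The SH2 footprints are 4, 6 and 4 counts. The log2 difference from SC was -0.05 (SE 0.26) in RNA and -2.03 (SE 0.42) in footprints for SH2, and 0.07 (SE 0.26) and -0.35 (SE 0.36) for SH3.

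STC1 was higher in SH2 than in either other treatment, in both RNA and footprints. Its RNA was 37.3, 33.6 and 26.9 CPM in SC, 117, 125 and 102 in SH2, and 52.5, 39.4 and 34.2 in SH3. SH2 was separated from both other treatments, and SH3 overlapped SC. The log2 difference from SC was 1.81 (SE 0.16) in SH2 and 0.37 (SE 0.16) in SH3. STC1 footprints were 26.6, 35.4 and 28.6 CPM in SC, 153, 149 and 95.2 in SH2, and 46.8, 31.5 and 32.6 in SH3, with the same separation of SH2. The footprint differences were 2.15 (SE 0.20) and 0.29 (SE 0.22) on the log2 scale.

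STC2, the paralogue of STC1, was rare. Its RNA was 0.490, 0.330 and 0.315 CPM in SC, 1.77, 2.86 and 2.81 in SH2, and 0.920, 0.755 and 0.805 in SH3, from 8 to 79 counts per library. As for PTHLH, the treatments fell in 3 ranges that did not overlap, with SC lowest and SH2 highest, and log2 differences from SC of 2.70 (SE 0.31) in SH2 and 1.12 (SE 0.35) in SH3. STC2 footprints were 1 count in each SC library, 3, 5 and 6 in SH2, and 1, 0 and 1 in SH3. Summed over replicates, SH2 held 6.56 times the scaled SC level, with a counting interval (95%, exact) of 1.83 to 35.6 that covers counting error only. SC and SH3 were both at the floor of 3 counts per library, so no fold is given between them, and STC2 did not pass the filter for the footprint fit.

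**Figure D1:**
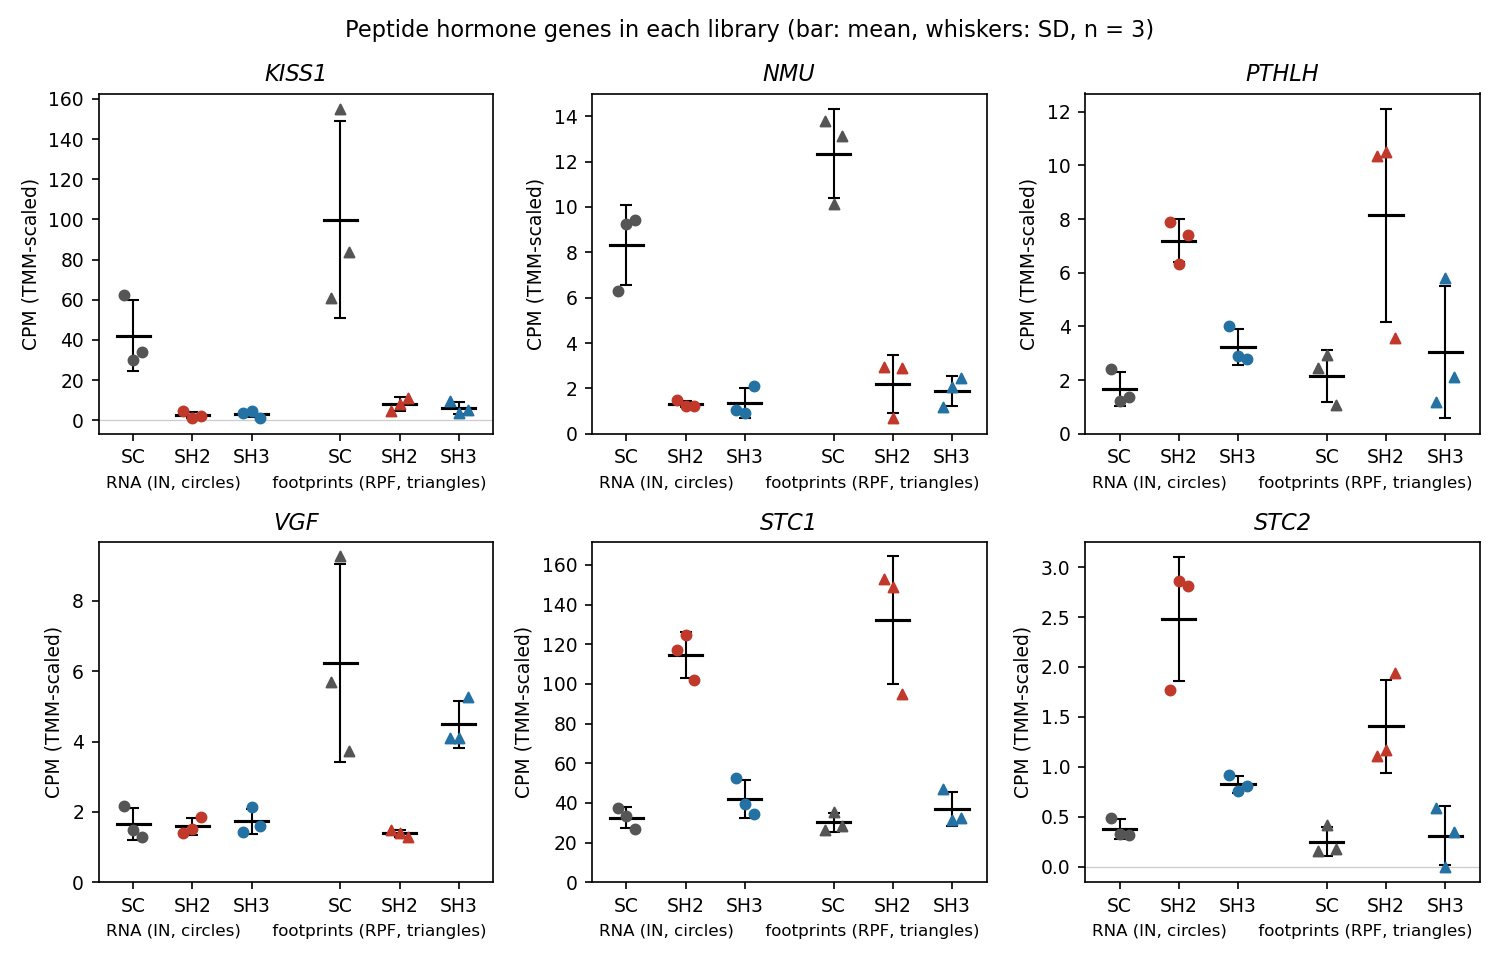
TMM-scaled CPM (vertical axes, linear) of each of the 6 genes in every library, for RNA (circles) and footprints (triangles) of SC, SH2 and SH3; bars are means and whiskers SDs of 3 replicates. KISS1 and NMU are low in all hairpin libraries, STC1 is high in SH2 alone, and VGF differs in SH2 footprints but not in RNA.

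In bulk libraries such as these, a lower share of expressing cells and less RNA per expressing cell cannot be told apart. Read against all genes tested, differences from SC were common. In RNA, 5 of the 6 hormones passed an adjusted p of 0.05 in edgeR's quasi-likelihood test in SH2, where 61.4% of all genes did, and 4 of 6 in SH3, where 53% did. In SH3 the STC2 call was lost without SC replicate 3 or SH3 replicate 1. STC1 passed there with no filter, with a replicate block, or without SC replicate 1 or SH3 replicate 3. In footprints 5 of 5 in the fit passed in SH2 and 2 of 5 in SH3, against 44.2% and 35.9% of all genes. By ranges alone, the RNA libraries of 5 hormones in SH2 and 4 in SH3 did not overlap SC, against 64.3% and 62.9% of all genes. In footprints 6 and 2 did not overlap SC, against 51.3% and 46.5% of the genes in the fit. The 6 include STC2, which was not in that fit. Since the genes were chosen with these comparisons known, nothing is read from the counts. In place among the log2 differences of all genes, KISS1 was at percentile 0.0079 in SH2 RNA and 0.0472 in SH3 RNA, whereas STC1 was at 98.2 and 73.2.

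The direct comparison of SH2 with SH3 was not among those that chose the genes, although it shares their hairpin libraries. Here the hormones parted by gene. In RNA, PTHLH, STC1 and STC2 were higher in SH2 (3 of 6 called, against 39.3% of all genes; by ranges 3 of 6 did not overlap, against 50%), and KISS1, NMU and VGF were not called. STC1 RNA was 2.72-fold higher in SH2 (log2 difference 1.45, 95% interval 1.11 to 1.78, edgeR adjusted p 1.08e-05). STC2 RNA was 2.99-fold higher (1.58, interval 1.00 to 2.16, edgeR adjusted p 0.000475) and PTHLH RNA 2.23-fold (1.16, interval 0.67 to 1.64, edgeR adjusted p 0.00132). In each of these 3 genes all SH2 libraries lay above all SH3 libraries, and the calls held in each of 11 alternatives.

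KISS1 and NMU did not differ between the hairpins past the threshold. Both genes were noted for being low under both hairpins, so a likeness between the hairpins is partly built into that choice. For KISS1 RNA the log2 difference was -0.24, with a 95% interval of -1.23 to 0.74 (edgeR adjusted p 0.704), and it was -0.86 without SH2 replicate 1. For NMU RNA it was -0.05, with an interval of -0.71 to 0.62 (edgeR adjusted p 0.923). VGF RNA gave -0.12 with an interval of -0.68 to 0.44 (edgeR adjusted p 0.752). Differences of the sizes inside those intervals were not excluded here.

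In footprints 2 of the 5 hormones fitted were called between the hairpins, against 23.8% of all genes, and 3 of 6 did not overlap, against 42% of the genes in the fit. The 3 include STC2, which was not in that fit. STC1 footprints were 3.64-fold higher in SH2 (1.86, interval 1.42 to 2.31, edgeR adjusted p 1.77e-05). VGF footprints were lower in SH2, by a log2 difference of -1.68 (interval -2.68 to -0.68, edgeR adjusted p 0.0167), on 4 to 6 counts per SH2 library and 7 to 15 per SH3 library. That VGF call was lost without SH2 replicate 2 (edgeR adjusted p 0.0590), SH2 replicate 3 (0.0517) or SH3 replicate 3 (0.0690), and the alternatives together gave 0.00459 to 0.0690. PTHLH footprints had a log2 difference of 1.32 (interval 0.24 to 2.40, edgeR adjusted p 0.0714), which passed the threshold in 5 of 11 alternatives (range 0.0121 to 0.243), reaching 2.22 without SH3 replicate 2. PTHLH passed the low-count filter mainly through SH2, where it is high (11 to 45 counts per library). It had 6 to 15 counts in SC and 2 to 17 in SH3. NMU passed the filter through SC (24 to 85 counts per library). KISS1 and NMU footprints gave 0.53 (interval -0.52 to 1.58) and 0.03 (interval -1.15 to 1.21).

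**Figure D2:**
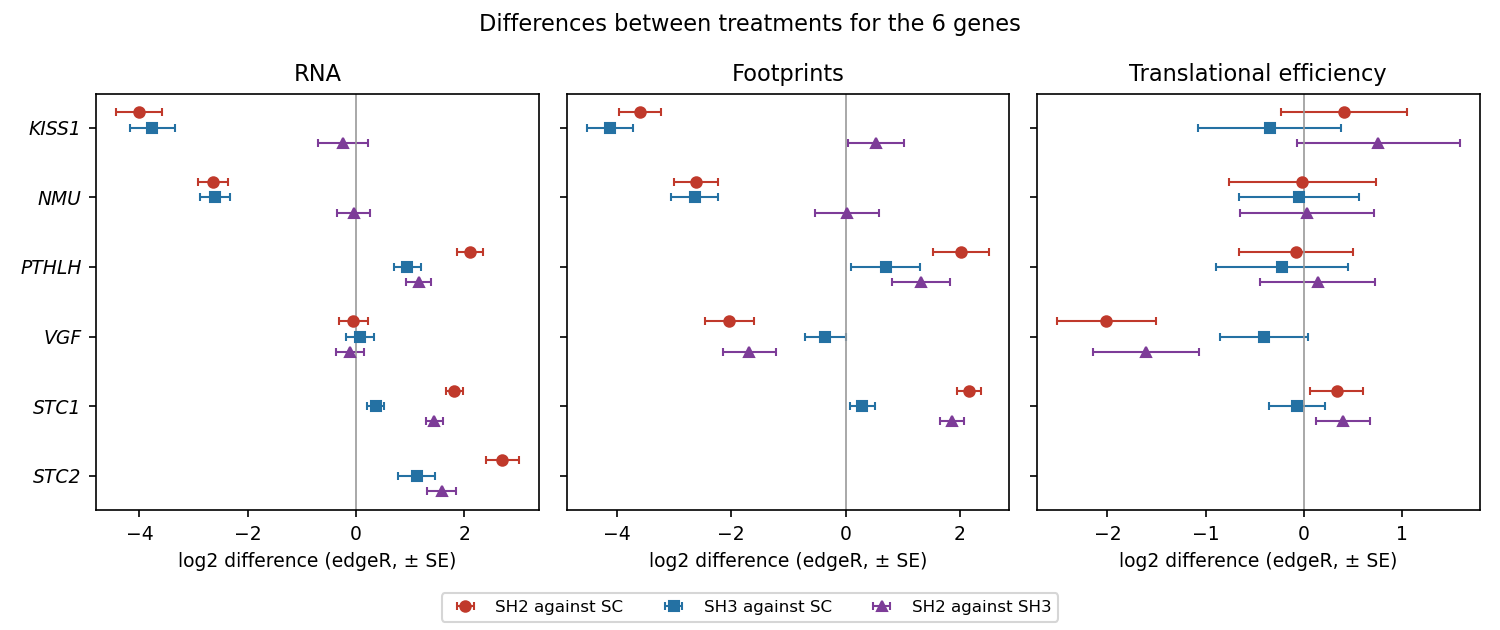
Log2 differences (horizontal axes) with standard errors for the 6 genes in RNA, footprints and translational efficiency, from edgeR fits of 9, 9 and 18 libraries; the vertical grey line is no difference, and STC2 is shown for RNA only because its footprints were at the floor in SC and SH3. For PTHLH, STC1 and STC2 the SH2 points lie to the right of the SH3 points in RNA, while for KISS1 and NMU the hairpins overlap.

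Translational efficiency is taken here as the footprint difference left after the RNA difference is subtracted, and VGF showed the largest such difference among the 5 hormones with a value. In SC, mean VGF footprints were 3.78 times its mean RNA on the CPM scales of the 2 library kinds. The ratio was 0.876 in SH2, or 23.2% of SC, and 2.60 in SH3, or 68.7%. The efficiency of VGF differed from SC by -2.01 (SE 0.50) in SH2 and -0.40 (SE 0.44) in SH3 on the log2 scale, and it ran from -2.54 to -1.67 over the alternatives in SH2. For KISS1, NMU, PTHLH and STC1 these differences lay between -0.35 and 0.42, with SEs of 0.27 to 0.75. They were loosely set for KISS1 and PTHLH: with 1 replicate left out, KISS1 ran from -0.23 (without SC replicate 1) to 1.28 (without SH2 replicate 1) in SH2. In SH3 KISS1 ran from -0.998 (without SC replicate 1) to 0.28 (without SH3 replicate 2), and PTHLH reached -1.22 without SH3 replicate 2. Called by edgeR were 1 of 6 hormones in SH2 (VGF) and 0 of 6 in SH3 (0 also at an unadjusted p under 0.05), against 3.9% and 0.686% of all genes. The genes were chosen with these ratios known, so nothing is read from the counts. The VGF call was kept in 5 and lost in 7 of 12 alternatives, among them those without SC replicate 2 and without any 1 of the SH2 replicates. DESeq2 gave VGF no adjusted p, and it called 0 of the 4 hormones with one in SH2 and 0 of 2 in SH3. STC2 was in this fit, but with its footprints at the floor in SC and SH3 no value is given. Between the hairpins edgeR called 0 of 6, against 0.016% of all genes. VGF was the gene of the set with an unadjusted p under 0.05, at a log2 difference of -1.61 (interval -2.73 to -0.49, edgeR adjusted p 0.221) that was -2.31 with thinned footprint libraries, and DESeq2 called 0 of the 2 hormones to which it gave an adjusted p.

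**Figure D3:**
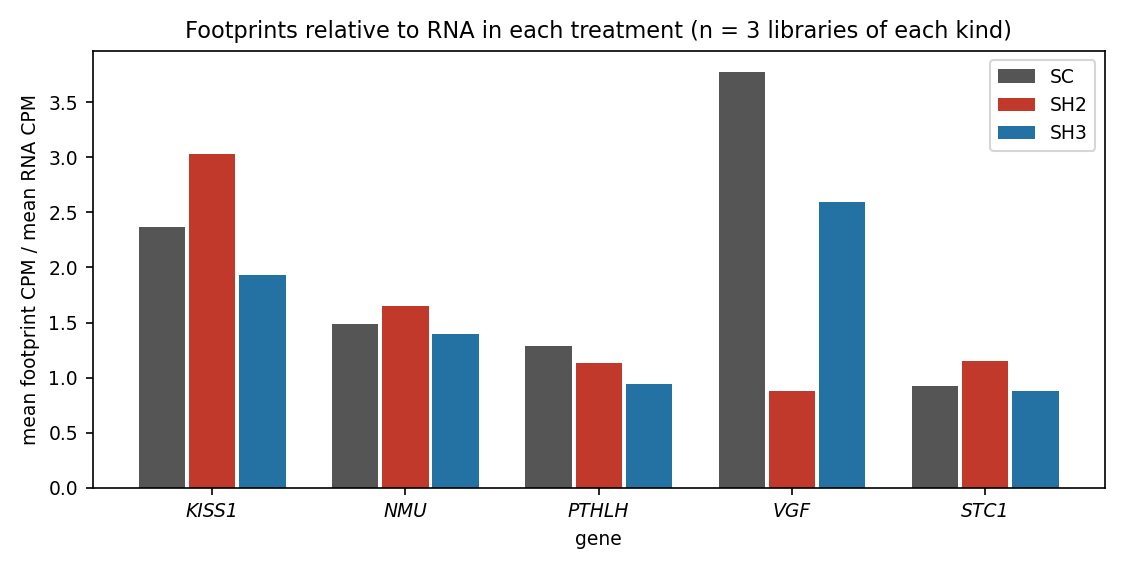
Ratio of mean footprint CPM to mean RNA CPM (vertical axis, linear from 0) for 5 of the genes in SC, SH2 and SH3. Bars are ratios of the means of 3 libraries of each kind. They carry no error bar because RNA and footprint replicates numbered 1 and 2 did not deviate together in SC and SH2. VGF goes from 3.78 in SC to 0.876 in SH2, and STC1 stays between 0.879 and 1.15.

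The baseline ratio in SC placed these genes differently among 10335 genes with both measures. The mean log2 ratio of footprint to RNA CPM (0.1 CPM added) was 1.79 ± 0.67 for VGF (SD, n = 3), at percentile 99.2, and 1.21 ± 1.21 for KISS1, at percentile 95.7. NMU had 0.57 ± 0.50, PTHLH 0.29 ± 0.80 and STC1 -0.11 ± 0.33, the last near the median of all genes (-0.19). The means do not depend on how RNA and footprint libraries are matched, but the SDs match them by replicate number, which SC numbers 1 and 2 do not bear out (correlations of -0.50 and -0.47). Matched in this way, the 3 KISS1 values ran from -0.04 to 2.38. Levels were not ranked between genes, since coding lengths were not at hand.

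Receptors for these hormones were scarce or differed between the hairpins. KISS1R, the kisspeptin receptor, had 0 to 4 RNA counts per library and 0 footprints. PTH2R, a relative of the PTHLH receptor, had 0 to 2 RNA counts. NMUR1 and NMUR2, the neuromedin U receptors, were not analysed here. PTH1R, the receptor of PTHLH, had 37, 33 and 39 RNA counts in SC, 16, 30 and 42 in SH2, and 2, 2 and 3 in SH3. Every SH3 library lay below all others, at or under the floor of 3 counts. Summed RNA in SH3 was 6.36% of SC (exact counting interval 2.50% to 13.5%) and 8.51% of SH2 (3.33% to 18.3%). PTH1R passed the edgeR threshold between SH3 and SC (adjusted p 1.00e-05) and between the hairpins (adjusted p 6.44e-05), and missed it between SH2 and SC (-0.43, SE 0.29, edgeR adjusted p 0.221).

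The enzymes and granule proteins that process hormone precursors were followed as a list of 19 genes, of which 12 were tested in RNA. In SH2, 8 rose and 1 fell, and in SH3, 5 rose and 0 fell, with medians of 0.64 and 0.45 against 0.01 and 0.03 over all genes tested. The called shares were 75% and 41.7%, against 61.4% and 53% of all genes. CPE, the carboxypeptidase that trims basic residues, stood at 10.7 ± 1.34 CPM in SC (SD, n = 3). SH2 had 33.0 ± 7.0 CPM and SH3 had 25.2 ± 6.66. Its log2 changes, each with an SE of 0.19, were 1.63 in SH2 and 1.24 in SH3 (edgeR adjusted p 6.61e-06 and 0.000113), and its footprints rose by 2.19 and 1.87. FURIN, the convertase that acts in the trans-Golgi network, rose in RNA by 0.54 and 0.59 (edgeR adjusted p 0.00183 and 0.00139). Its footprints gave -0.03 and -0.10 (edgeR adjusted p 0.923 and 0.751). The translational efficiency of FURIN was not called in either hairpin (-0.59 and -0.68, edgeR adjusted p 0.191 and 0.231). CPD, another carboxypeptidase of the Golgi, rose in RNA by 0.80 and 0.56. PAM, the amidating enzyme, fell by 0.34 in SH2 RNA (edgeR adjusted p 0.0321) and gave -0.07 in SH3. Footprint calls in this list were 4 of 11 in SH2 and 1 of 11 in SH3, all higher, shares below the 44.2% and 35.9% of all genes, and the SH3 count was 2 without SC replicate 2.

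Stanniocalcins inhibit the proteases PAPPA and PAPPA2, which cut insulin-like growth factor binding proteins and so free the growth factor. Of 12 genes of this axis, 9 were tested in RNA: 4 rose and 3 fell in SH2, and 5 rose and 4 fell in SH3, with medians of 0.26 and 0.36. The called shares were 77.8% and 100%, against 61.4% and 53% of all genes. PAPPA2 RNA was 5.97 ± 2.99 CPM in SC, and SH2 held 1.44 ± 0.132 and SH3 2.08 ± 0.691 (SD, n = 3 each). It fell by 2.05 and 1.52 on the log2 scale (edgeR adjusted p 0.000169 and 0.00174). PAPPA2 footprints were at the floor in both hairpins, with 0 to 3 counts per library. PAPPA went both ways, with RNA means of 39.3 ± 5.02, 47.1 ± 7.40 and 26.1 ± 3.40 CPM in SC, SH2 and SH3. PAPPA footprint means were 20.8 ± 4.68, 31.9 ± 2.24 and 17.0 ± 1.86 CPM. IGFBP4, a binding protein that PAPPA cuts, had means of 948 ± 151, 1818 ± 294 and 1239 ± 159 CPM in SC, SH2 and SH3. It rose by 0.94 and 0.39 (edgeR adjusted p 7.33e-05 and 0.0354). It was also higher in SH2 than in SH3, by 0.55 (edgeR adjusted p 0.00763). IGFBP5 rose by 2.09 and 1.93 from 0.461 ± 0.457 CPM in SC (SD, n = 3, edgeR adjusted p 0.0117 and 0.0230). Its SC counts were 1, 23 and 10, and both hairpins overlapped SC. SC replicate 2 (0.948 CPM) lay above replicate 1 of SH2 (0.784) and of SH3 (0.920). IGF2R, the clearance receptor for IGF2, rose by 0.80 and 0.86. IGF1R, the signalling receptor, gave 0.03 in SH2 RNA (edgeR adjusted p 0.843) and rose by 0.36 in SH3 RNA (edgeR adjusted p 0.0355). Its footprints rose by 0.61 and 0.84 (edgeR adjusted p 0.0106 and 0.00190). The translational efficiency of IGF1R was not called in either hairpin (0.58 and 0.50, edgeR adjusted p 0.172 and 0.364). In footprints 8 of 8 tested were called in SH2 and 5 of 8 in SH3, against 44.2% and 35.9% of all genes, and the SH2 count was 5 without SC replicate 3, SH2 replicate 2 or SH2 replicate 3, and with thinned footprint libraries.

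Factors reported to act upstream of these hormones moved both ways. All 11 were tested in RNA: 4 rose and 4 fell in SH2, and 4 rose and 3 fell in SH3. The called shares of 72.7% and 63.6% stand beside 61.4% and 53% of all genes. TXNIP, reported upstream of KISS1, had means of 221 ± 47.1, 374 ± 25.3 and 514 ± 12.4 CPM in SC, SH2 and SH3 (SD, n = 3 each). It rose by 0.76 in SH2 and 1.22 in SH3, with an SE of 0.13 for each (edgeR adjusted p 0.000144 and 4.70e-06). TFAP2A, a transcription factor reported to act at the KISS1 promoter, fell by 0.96 and 0.65 (edgeR adjusted p 6.21e-05 and 0.00167). HIF1A, the oxygen-regulated factor, rose by 0.45 in SH2 (edgeR adjusted p 0.0155) and gave 0.18 in SH3 (edgeR adjusted p 0.321). ATF4, the stress-induced factor, fell by 0.34 in SH2 and 0.36 in SH3. The RNA counts of calls were 5 in SH2 without SC replicate 3 or SH2 replicate 2, and 4 in SH3 without SC replicate 3.

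Other secreted hormones gave a mixed picture. Of 95 listed, 59 were in the table and 17 were tested in RNA; 3 rose and 2 fell in SH2, and 4 rose and 7 fell in SH3, with medians of -0.01 and -0.53. The called shares were 29.4% and 64.7%, against 61.4% and 53% of all genes. INHBB, a subunit of activin B, had means of 3.41 ± 0.482, 13.8 ± 2.92 and 13.2 ± 1.03 CPM in SC, SH2 and SH3 (SD, n = 3 each). It rose by 2.02 and 1.95 on the log2 scale (edgeR adjusted p 6.02e-07 and 1.88e-06). EDN1, the precursor of the vasoconstrictor endothelin-1, fell by 1.40 and 1.73 (edgeR adjusted p 0.00183 and 0.000618), and its footprints fell by 1.36 and 2.16. INHBA, the activin A subunit, was higher in SH2 than in SH3 by 1.65 in RNA (edgeR adjusted p 0.00170) and 2.29 in footprints (edgeR adjusted p 0.00226). ADM (adrenomedullin) and NUCB2 (the nesfatin-1 precursor) were also higher in SH2 RNA than in SH3, by 0.64 and 1.06 (edgeR adjusted p 0.00563 and 0.000432). Without SC replicate 1 the number of calls in SH2 RNA was 8. In SH2 footprints 2 of 6 tested were called against SC, beside 44.2% of all genes, with 4 called under a replicate block and 5 with no filter on low counts. In SH3 footprints 5 of 6 were called (1 higher and 4 lower), beside 35.9% of all genes. That count was 2 or 3 in 7 of 12 alternatives, among them those without SC replicate 2 or 3 (3 called) and without SH3 replicate 2 or 3 (2 called).

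**Figure D4:**
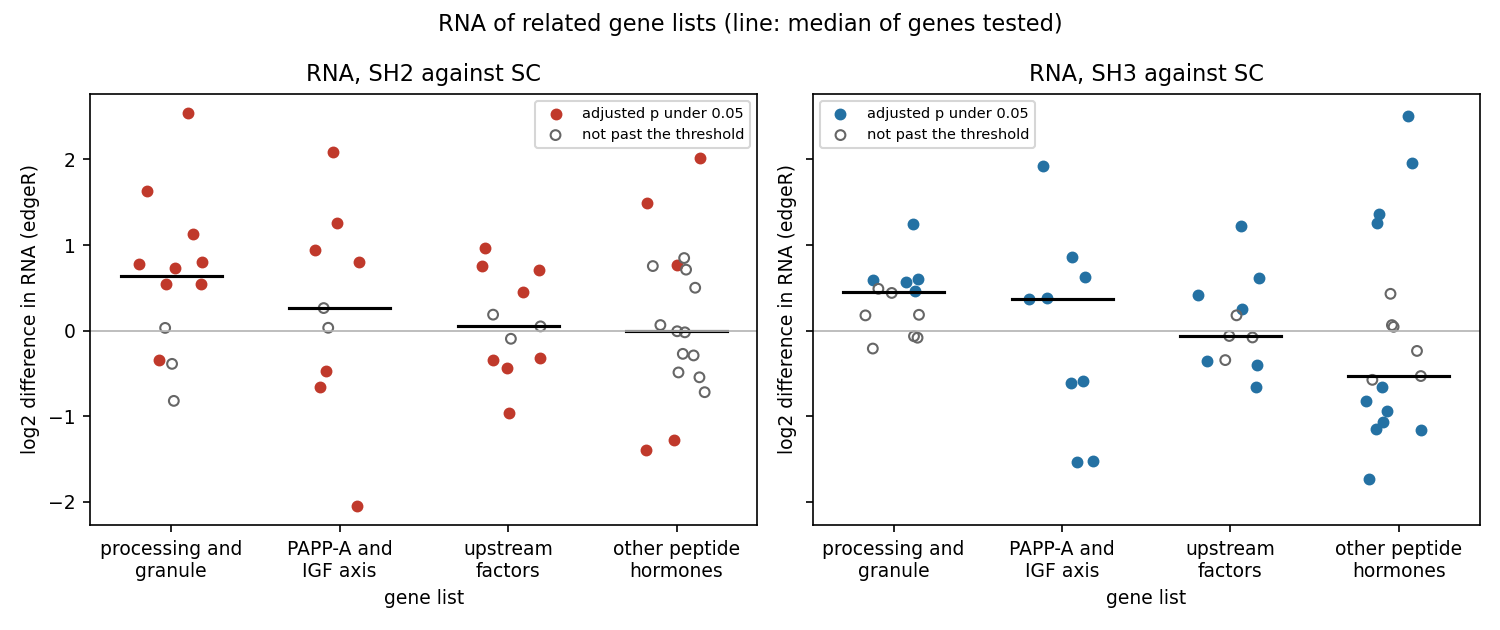
Log2 differences in RNA from SC (vertical axis) for the genes tested in 4 related lists, in SH2 (left) and SH3 (right); filled points passed an edgeR adjusted p of 0.05, open points did not, and lines are medians. Processing genes lie mostly above 0 in both hairpins, and the other hormones have a median of -0.53 in SH3.

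Genes most like each hormone were found by the root mean square difference of their log2 CPM (0.5 CPM added) over 18 libraries, each gene centred on its own mean within RNA and within footprints. For NMU the nearest of 10335 genes were the replication-dependent histones H3C3 (0.34), H2AC11 (0.39) and H2AC12 (0.40), against a median of 1.21 over all genes. Histone genes of these families are near-identical, so their counts are uncertain where shared reads were divided. Mean H3C3 RNA was 647, 115 and 128 CPM in SC, SH2 and SH3. For STC1 they were MMP14 (0.25), GALNT6 (0.28) and LZTFL1 (0.28), with MMP14, a membrane-bound matrix protease, at 267 CPM in SC RNA, 711 in SH2 and 288 in SH3. For PTHLH they were EIF2AK3 (0.43), ATP6V0D2 (0.43) and B3GNT3 (0.47). For KISS1 they were ATP6V0A4 (0.82), CPED1 (0.84) and AP1M2 (0.87), against a median of 1.87. For VGF they were BEND7, MAP2K2 and UCK1 (0.33 each), against a median of 0.67. A gene that did not vary would lie at the hormone's own root mean square. That was 1.17 for NMU, 1.84 for KISS1 and 0.59 for VGF, near those medians. For KISS1 and NMU the distances take in the drop from SC for which they were chosen. The nearest genes are the smallest distances over 10335 genes, and the likeness was not tested.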

How the data were processed

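The deposited table holds raw read counts per gene symbol for 18 libraries, made by the authors. Per the submitters' processing notes, Bowtie 1.2.2 and DESeq2 were used, with roles not given. Counting method, annotation and genome build are not given in the sources used here. The deposited signal columns (normalized with DESeq2, per the file headers), the deposited log2 fold changes and the deposited p-values were read but not used. In all 3 column pairs of the measure RD the deposited values for SH2 and SH3 are identical over 17017 genes.

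From the counts, edgeR 4.0.16 (R 4.3.3) was run with filterByExpr, TMM scaling and the quasi-likelihood test, two-sided, with Benjamini-Hochberg adjustment over all genes tested: 12710 in the RNA fit (9 libraries), 10345 in the footprint fit (9 libraries) and 12531 in the translational efficiency fit (18 libraries, interaction contrast). Called means an adjusted p under 0.05. Standard errors are the absolute log2 difference over the square root of F, and 95% intervals use the t distribution on edgeR's total degrees of freedom. The floor is 3 counts per library. Floors and exact intervals cover counting error only, since no molecular identifiers are recorded in the sources used here. The hormones and lists were chosen with earlier results of these data known. Genes named from the related lists are the 3 highest in SC RNA and the 2 with the largest shared RNA difference. All receptors and the 3 genes nearest to each hormone are also named. The 2 with the largest shared difference were taken among genes called in the same direction in both hairpins. Their RNA calls against SC were thus a condition of the choice. Marker lists are given by sums and counts. CD44, PLAUR, GATA3, EPCAM and PAPPA were named after their values were seen. A neuroendocrine marker is not reported here. DESeq2 1.42.0 (Wald test), RLE scaling, no filter, fits of the compared treatments alone, blocks, thinned footprint libraries and fits leaving out each replicate were the alternatives. The fits were tested on simulated data: in RNA, SH2 against SC, with 12710 genes, 85% of genes changed by 1 on the log2 scale were recovered. The share was 77% in footprints and 46% in translational efficiency. Each simulation changed 100 genes by this size, unlike the data, where 61.4% of genes were called in that RNA comparison.

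Deviations from group means correlated over 0.1 in every same-numbered pair of SC and SH2, in RNA (0.37 to 0.41) and footprints (0.25 to 0.30). Those numbers may therefore pair, although unlike numbers were not compared. The main fits carried no replicate term, and the replicate block was run as an alternative. Other same-numbered pairs ran from -0.16 to 0.49, and RNA with footprints of the same number from -0.50 to 0.51 (0.21 to 0.43 in SH3). No replicates agreed within counting noise (chi-square per degree of freedom 3.38 to 56.3).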

Additional observations from a re-analysis of the deposited data

Results flagged for a closer look

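Between the hairpins, 5 differences among the hormones passed the edgeR test of the difference itself. They were 3 of 6 tested in RNA and 2 of 5 in footprints, where 39.3% and 23.8% of all genes passed. PTHLH (log2 difference 1.16), STC1 (1.45) and STC2 (1.58) were higher in SH2 RNA than in SH3 RNA. In footprints, STC1 was higher in SH2 (1.86) and VGF lower (-1.68). The VGF call was lost without SH2 replicate 2, SH2 replicate 3 or SH3 replicate 3. The labels do not say how the hairpins differ in sequence, and the cause was not tested.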

How the results depend on the processing

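No gene of the set reversed a called direction under the alternatives run. The counts of called genes in RNA and footprints stayed within 1.5 times under each alternative, except for SH2 against SH3 in footprints, which ran from 1541 (without SH3 replicate 2) to 2104 when a replicate was left out. Translational efficiency counts moved more, and the cause was not tested. For SH2 against SC, 489 became 910 with DESeq2, 184 when SH3 was left out of the fit, 755 with a replicate block, 191 with a replicate block by lysate and 291 with thinned footprint libraries, and 110 to 555 without 1 replicate. For SH3 against SC, 86 became 355, 46, 150 and 23 under DESeq2, without SH2, and with the replicate block and lysate block and 10 to 244 without 1 replicate. For SH2 against SH3, 2 became 229 with DESeq2, 35 with no filter, 36 when SC was left out of the fit, 75 with a replicate block, and 0 with the lysate block (1178 at an unadjusted p under 0.05) or thinning (1385), and 0 to 1 without 1 replicate. The replicate block changed no call of VGF, STC1 or STC2 between the hairpins and brought PTHLH footprints past the threshold (1.28, edgeR adjusted p 0.0232). Footprint counts under 10 per library limit NMU, PTHLH, VGF and STC2.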
